A study of Mus musculus with 20 samples.

Results

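Ceapin-A7 is a small molecule that blocks ATF6, a transmembrane transcription factor of the endoplasmic reticulum (ER). Here its effect on retinal mRNA was read from 10 of the 20 libraries of the series, 5 from retinas injected with Ceapin-A7 and 5 from retinas injected with saline, and was described over all genes rather than over ER stress genes alone. The libraries were chosen by their treatment label, and no measured value entered the choice. All 10 came from wild type (WT) mice at postnatal day (P) 30. Both eyes received 1 µL into the vitreous under ketamine and xylazine, either 10 µM Ceapin-A7 in saline with dimethyl sulfoxide or saline with dimethyl sulfoxide and no Ceapin-A7 (labelled PBS), and retinas were collected 24 h later after removal of cornea and lens. The labels and the study's methods give different solvent contents for these solutions, so Ceapin-A7 and any difference in solvent cannot be told apart. No uninjected eye was among the libraries analysed here. The remaining 10 libraries, P17 retinas of WT and Atf6 knockout mice after oxygen-induced retinopathy (OIR), entered the comparison of spread and 1 alternative fit of all 20 libraries. The labels do not say whether 2 retinas of a group came from 1 mouse, so p-values measure only the spread between these samples.

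When unfolded proteins accumulate in the ER, ATF6 leaves for the Golgi, where the proteases encoded by Mbtps1 and Mbtps2 cut it, and the freed part enters the nucleus and raises ER chaperones such as Hspa5. The other arms of this unfolded protein response (UPR) start from the kinases PERK, whose signal passes through ATF4, and IRE1, which splices Xbp1 mRNA. Ceapins hold ATF6 in the ER by tethering it to ABCD3, a transporter of the peroxisome membrane. In the retina, rods and cones carry a heavy load of membrane protein, and Müller glia, the main support cells, respond to injury by raising Gfap and vimentin and by losing glutamine synthetase (Glul).

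ATF6 acts through the ER stress response element (ERSE), here searched on either strand as CCAAT and CCACG with 9 unspecified bases between them, and ATF4 acts through a C/EBP-ATF response element (CARE), searched as TGATGNAA on either strand. In RefSeq promoter windows of 250 bases before to 50 after a gene's start (build GRCm38.p6), ERSE was in 39 of 32851 windows (0.119%) and in 8 of the 16 listed ATF6 targets that had a window. CARE was in 1304 windows (3.97%) and in 10 of the 26 listed PERK/ATF4 targets that had one. A match is a description of the letters only. The stretches below show the sites of genes whose values follow, written along the gene's own strand with the motif in capitals, which reads as CGTGG and ATTGG with the same spacing, or as TTNCATCA, where it lies on the other strand.
Hspa5 (ERSE, chr2:34772013-34772055, plus strand): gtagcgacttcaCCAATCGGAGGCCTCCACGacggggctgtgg
Hsp90b1 (ERSE nearer the start, chr10:86705521-86705563, minus strand): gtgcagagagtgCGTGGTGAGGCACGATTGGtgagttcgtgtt
Calr (ERSE, chr8:84847063-84847105, minus strand): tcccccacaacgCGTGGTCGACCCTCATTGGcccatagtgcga
Pdia6 (ERSE, chr12:17266479-17266521, plus strand): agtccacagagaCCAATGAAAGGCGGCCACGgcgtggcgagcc
Atf3 (CARE, chr1:191183424-191183455, minus strand): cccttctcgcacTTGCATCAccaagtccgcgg
Chac1 (CARE, chr2:119351037-119351068, plus strand): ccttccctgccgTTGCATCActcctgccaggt
Nupr1 (CARE, chr7:126625561-126625592, minus strand): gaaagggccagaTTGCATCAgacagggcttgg
Asns (CARE, chr6:7693213-7693244, minus strand): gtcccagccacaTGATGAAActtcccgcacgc

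Across the 15408 genes tested, no gene differed between Ceapin-A7 and saline at an adjusted p under 0.05 (limma, Benjamini-Hochberg), which is 0.0% in either direction, and the lowest adjusted p was 0.472. At an unadjusted p no higher than 0.05, 777 genes (5.04%) were higher and 818 (5.31%) were lower after Ceapin-A7, together 10.4% of the genes tested. All of these 1595 genes had a limma adjusted p between 0.472 and 0.481, so single p-values are not repeated for the genes named below. With the values rescaled to a common sum in each library, the same count was 456 higher and 1243 lower, so that 26.8% of these genes were higher instead of 48.7%. The groups did not overlap for 121 genes in the higher direction (0.785%) and for 106 in the lower (0.688%). All shifts below are therefore descriptions of these libraries, and every log2 fold change is Ceapin-A7 minus saline on the log2(FPKM + 0.1) scale after rescaling, where FPKM is the number of fragments scaled by transcript length and by the mapped fragments of the library. The median over all genes was 0.00089.

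Saline replicates 4 and 5 stood apart from the other 8 libraries in a part of the genes. Of the 15408 genes tested, both lay above all 8 others for 1846 and below them for 1636. Without these 2 libraries, which were left out after the data had been seen, no gene was called (lowest adjusted p = 0.991, limma), and 400 genes (2.6%) were higher and 365 (2.37%) lower at an unadjusted p no higher than 0.05, together 4.96%. The groups then did not overlap for 255 genes in the higher direction (1.65%) and for 250 in the lower (1.62%). Of the 1595 genes at that threshold with all libraries, 481 (30.2%) were also there, in the same direction, without these 2. The 2 were singled out with the values of PERK/ATF4, gliosis and rod genes in view. For those lists, counts and shifts with and without them restate that choice and are not separate evidence. The 2 were not alike for every list, as the gliosis scores below show, and no other pair of libraries was examined in this way. Values without these 2 libraries are given beside most of the results below.

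Other tissues were present in both groups. Cryaa, a crystallin of the lens, ran from 2.92 to 2422 FPKM in saline and from 28.6 to 3973 FPKM in Ceapin-A7 retinas, and the summed FPKM of 23 lens genes ran from 14.6 to 6352 in saline and from 163 to 11067 in Ceapin-A7 retinas. Skeletal muscle genes were high in Ceapin-A7 replicate 4 alone, where Mylpf, a muscle myosin light chain, was at 50.7 FPKM against 2.23 to 3.46 in the other 9 libraries. The summed FPKM of pigment epithelium genes and that of stromal genes were highest in Ceapin-A7 replicate 3, with the melanocyte gene Dct at 154 FPKM against 6.01 to 65.3 elsewhere and the collagen-binding Dcn at 21.0 against 0.15 to 2.93. By the median of centred log2 values over the pigment epithelium genes, saline replicate 1 was highest, at 0.785 against 0.360 in Ceapin-A7 replicate 3. The Y-linked Ddx3y was between 16.1 and 17.5 FPKM in saline replicate 5 and Ceapin-A7 replicates 1 to 3. It was listed at 0 in the other 6 libraries, so the groups held both sexes in unequal numbers. Leaving out saline replicates 4 and 5 leaves every saline library at 0 for Ddx3y. Values without them are therefore more confounded with sex than the full comparison, and rest on fewer saline than Ceapin-A7 libraries. A fit with Ddx3y as a covariate also called 0 genes, and the spread of libraries is given below with and without the genes of other tissues. The part of these differences in the remaining results was not tested. The steps between low values put the relative depth of Ceapin-A7 replicate 3 at 0.688, an estimate from 8 values, against 1.0 in the other 9 libraries, and that library had the most genes listed at 0, 2619 against 2306 to 2525. In whole retina, fewer cells of a type and less RNA per cell cannot be told apart.

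The genes of ATF6, its paralog, its proteases and the tether ABCD3 were expressed at much the same level in both groups. Atf6 was at 15.4, 16.5, 15.2, 17.5 and 16.9 FPKM in saline replicates 1 to 5 and at 17.1, 16.5, 16.7, 16.0 and 15.6 in Ceapin-A7 replicates 1 to 5. The ranges overlapped almost fully, with a log2 fold change of 0.01 ± 0.047 (SE; limma adjusted p = 0.949). Its paralog Atf6b averaged 41.1 ± 0.685 FPKM (SD, n = 5) in saline and 39.5 ± 2.09 in Ceapin-A7 retinas, Mbtps1 averaged 37.0 ± 1.56 and 39.1 ± 1.36, Mbtps2 averaged 5.68 ± 0.249 and 5.65 ± 0.382, and Abcd3 averaged 21.0 ± 1.17 and 21.6 ± 1.02. None of these 5 genes reached an unadjusted p of 0.05. Of 12 genes of the ATF6 family and its processing, 1 did, Nfyc, a subunit of the NF-Y factor that binds the CCAAT part of ERSE (log2 fold change 0.14 ± 0.046). Because Ceapin-A7 acts on the ATF6 protein, mRNA of Atf6 itself does not show whether the protein was blocked.

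ATF6 target genes differed little between the groups. All 18 had a log2 fold change below 0, with a median of -0.08. At an unadjusted p no higher than 0.05, 2 were lower, against 5.31% of all genes. These were Pdia6, a disulfide isomerase of the ER, and Sel1l, a subunit of the complex that sends misfolded proteins to the cytosol. Pdia6 was at 59.3, 53.8, 50.3, 56.6 and 59.2 FPKM in saline and at 48.1, 49.7, 53.4, 53.2 and 50.1 in Ceapin-A7 retinas, with overlap. Its log2 fold change was -0.13 ± 0.047 with all libraries and -0.11 without saline replicates 4 and 5. Sel1l was at 24.8 to 28.8 FPKM in saline and 23.9 to 24.7 in Ceapin-A7 retinas (log2 fold change -0.10 ± 0.040, and -0.06 without the 2).

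Hspa5, the ER chaperone whose promoter carries the ERSE shown first, was at 110, 110, 106, 138 and 162 FPKM in saline and at 106, 113, 132, 110 and 117 in Ceapin-A7 retinas. Its 2 highest values were those of saline replicates 4 and 5, and the log2 fold change of -0.10 ± 0.105 with all libraries became 0.06 without them. The calcium-binding chaperone Calr, with an ERSE shown above, gave -0.06 and -0.01 in the same way, and Hsp90b1, another ER chaperone with an ERSE, gave -0.07 and -0.08. Without the 2 libraries 5 of the 18 targets were above 0 and 13 below, the median was -0.04 and none was at an unadjusted p no higher than 0.05. Over the 21 tested genes with an ERSE in their window, listed targets or not, 15 were below 0 and 6 above, with a median of -0.06 (3 lower at an unadjusted p no higher than 0.05) and of -0.04 without the 2 libraries (1 lower). For IRE1 and XBP1 targets the median over 20 genes was -0.05, and -0.03 without the 2 libraries, and 1 was higher and 2 lower at that threshold either way. Among these, Spcs2, a subunit of the signal peptidase, did not overlap between groups, at 45.1 to 47.1 FPKM in saline and 47.8 to 52.0 in Ceapin-A7 retinas (0.11 ± 0.035). Ern1, which encodes IRE1 itself, averaged 9.44 ± 0.956 and 8.46 ± 0.204 FPKM (-0.15 ± 0.062, and -0.12 without the 2). The study's panel of UPR genes, 117 of which were tested and 1 was not, had a median of -0.06 (4 higher and 10 lower) and of -0.02 (3 higher and 4 lower) without saline replicates 4 and 5. Of all genes, 5.04% were higher and 5.31% lower at that threshold, and 2.6% and 2.37% without the 2. The study applied that panel to these samples, so its direction is not independent evidence.

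The PERK and ATF4 branch set saline replicates 4 and 5 apart from the other 8 libraries, and the 2 were picked with its values in view. Over its 31 genes the median log2 fold change was -0.33, yet the library score, the median over the list of log2 values centred on the 10 libraries, was 0.54 and 0.67 in saline replicates 4 and 5 and between -0.18 and -0.05 in the other 8 libraries. For 25 of the 31 genes both of these saline values lay above the other 8, against 1846 of the 15408 genes tested. Atf3, a stress-induced transcription factor with the CARE shown above, was at 6.37, 6.40, 4.86, 28.6 and 20.7 FPKM in saline and at 3.33, 3.79, 5.41, 5.47 and 3.18 in Ceapin-A7 retinas. The 2 highest values were those of saline replicates 4 and 5, and the lowest saline value lay within the treated range. The log2 fold change was -1.31 ± 0.442 with all libraries and -0.51 without the 2.

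Atf5, an ATF4 target that acts on mitochondrial stress genes, was at 17.6, 24, 14.4, 56.3 and 64.8 FPKM in saline and at 11.9 to 17.5 in Ceapin-A7 retinas (-0.99 ± 0.370, and -0.32 without the 2). Atf4 itself was at 198, 213, 209, 294 and 356 FPKM in saline and at 226, 210, 206, 207 and 206 in Ceapin-A7 retinas. The first 3 saline values sat within the range of the treated ones or just under it, and the log2 fold change went from -0.23 to 0.01 without the other 2. Ddit3, the pro-apoptotic CHOP, behaved alike in numbers, at 34.7, 45.6, 46.4, 73.0 and 87.3 FPKM in saline and 39.3 to 44.5 in Ceapin-A7 retinas (-0.33 to 0.02). Other CARE genes shown above, named for their sites after their values had been seen, had the same order of libraries. Chac1, which degrades glutathione, was at 19.7 and 13.9 FPKM in saline replicates 4 and 5 and at 3.54 to 5.09 in the other 8 libraries. Asns, which makes asparagine, was at 37.2 and 36.6 against 20.1 to 25.9, and Nupr1, a stress-induced chromatin protein, was at 137 and 151 against 14.7 to 62.1. Without the 2 libraries the list's median was -0.0018, with 1 gene higher and 1 lower at an unadjusted p no higher than 0.05.

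**Figure D1:**
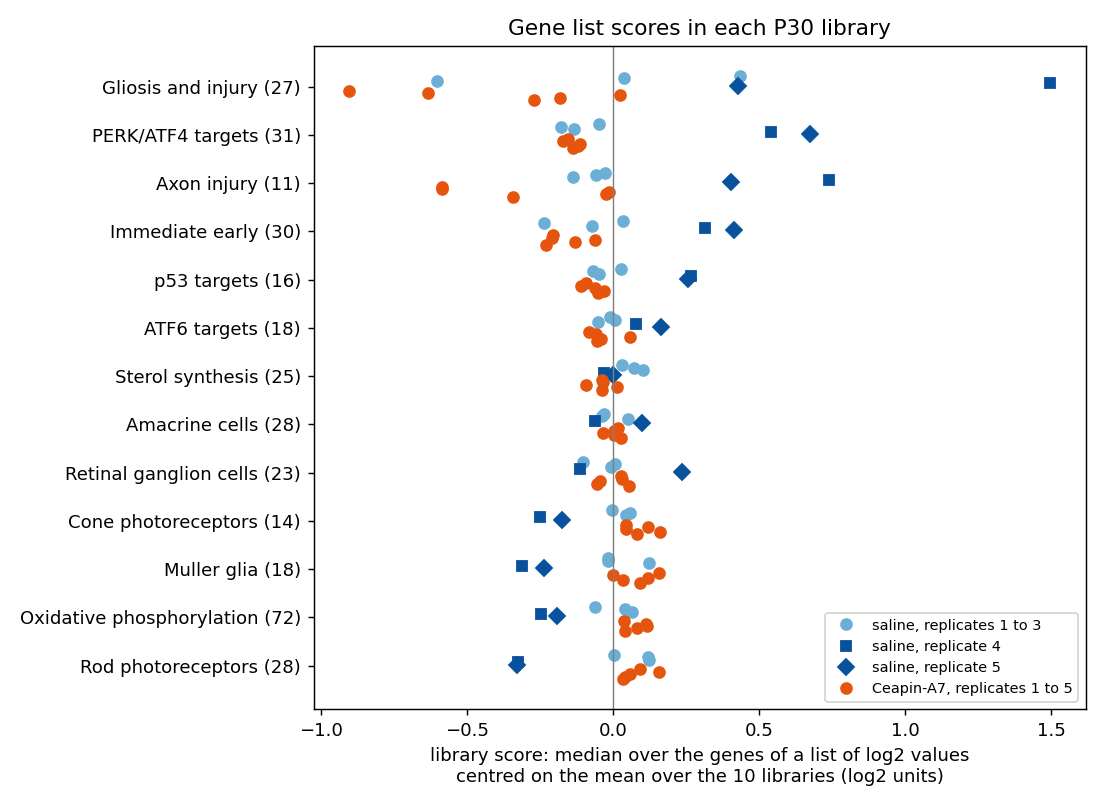
Score of 13 gene lists in each P30 library, on the horizontal axis in log2 units, with the number of genes tested in brackets and 0 at the mean over the 10 libraries. Saline replicates 4 and 5 (dark blue) lie right of the other 8 libraries for PERK/ATF4 targets and left of them for rod genes (-0.32 and -0.33). Saline replicates 1 to 3 (light blue) lie partly among the Ceapin-A7 libraries (orange) and partly outside them, as for sterol synthesis.

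Early response genes followed the same libraries in part. Of 30 immediate early genes, 10 were lower at an unadjusted p no higher than 0.05 with all libraries, against 5.31% of all genes, and 7 without saline replicates 4 and 5, against 2.37%, and the median went from -0.34 to -0.06. Fos, a subunit of the AP-1 factor, was at 26.1, 14.1, 22.8, 22.9 and 30.3 FPKM in saline and at 12, 15.1, 14.2, 17.4 and 14.7 in Ceapin-A7 retinas. Saline replicate 2 lay within the treated range and the other 4 above it, for a log2 fold change of -0.63 ± 0.165, and of -0.50 without the 2 libraries. Ier2, another gene induced within minutes of a stimulus, averaged 22.9 ± 3.98 and 17.4 ± 1.48 FPKM (-0.38, and -0.23 without the 2). Fosl1, an AP-1 subunit induced later, was at 6.30 and 15.3 FPKM in saline replicates 4 and 5 and at or below 0.63 in the other 8 libraries.

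Heat shock genes, which mark unfolded protein in the cytosol, had a median of -0.01 over 20 genes, and of 0.03 without saline replicates 4 and 5. Bag3, a co-chaperone, was the 1 gene lower at an unadjusted p no higher than 0.05 (-0.59, and -0.17 without the 2 libraries), with 7.60 and 8.18 FPKM in saline replicates 4 and 5 and 2.80 to 4.54 in the rest. Of 16 p53 targets, 2 were lower, Phlda3 and Sesn2, against 5.31% of all genes. The list's median went from -0.16 to -0.03 without the 2 libraries. Antioxidant genes under NRF2 had a median of 0.04 over 24 genes, with 2 higher, and of 0.01 with 1 higher without the 2. Gclc, the rate-limiting enzyme of glutathione synthesis, did not overlap between groups, at 12.4 to 13.2 FPKM in saline and 13.6 to 15.0 in Ceapin-A7 retinas (0.15 ± 0.043, and 0.12 without the 2). Genes of the glucocorticoid response, of hypoxia and glycolysis, and of the circadian clock had medians of -0.004, -0.01 and -0.05 over 10, 21 and 21 genes, and of -0.009, 0.003 and -0.002 without the 2.

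Genes of gliosis and injury showed the lowest median of the stress and glial lists, -0.85 over 27 genes, and -0.37 without saline replicates 4 and 5. With all libraries 10 were lower and none higher at an unadjusted p no higher than 0.05, against 5.31% of all genes lower, and 1 was lower without the 2, which is near the 2.37% of all genes. Gfap, the intermediate filament of reactive glia, was at 31.3, 29.8, 17.2, 40.7 and 41.7 FPKM in saline and at 9.31, 15.4, 27.0, 25.3 and 17.6 in Ceapin-A7 retinas. Saline replicate 3 alone lay within the treated range. The log2 fold change was -0.79 ± 0.295, and -0.53 without the 2. Vim, the filament of Müller glia, was at 189, 144, 103, 327 and 312 FPKM in saline and at 97.9 to 138 in Ceapin-A7 retinas (-0.70, and -0.24 without the 2). Osmr, the receptor of oncostatin M, averaged 6.14 ± 3.39 and 2.86 ± 0.655 FPKM (-0.93 and -0.40), and Bcl3, a regulator of NF-kappaB, averaged 3.93 ± 3.43 and 1.13 ± 0.61 (-1.47 and -0.71). Lif, the cytokine that Müller glia use to signal photoreceptor injury, was at 4.25 and 5.23 FPKM in saline replicates 4 and 5 and at 0.20 to 0.38 in the other 8 libraries. The score of the list itself varied within each group, from -0.60 to 1.5 in saline and from -0.90 to 0.02 in Ceapin-A7 libraries. Saline replicate 4 held the highest score, whereas saline replicate 5 was at 0.429, much like saline replicate 1 at 0.433.

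**Figure D2:**
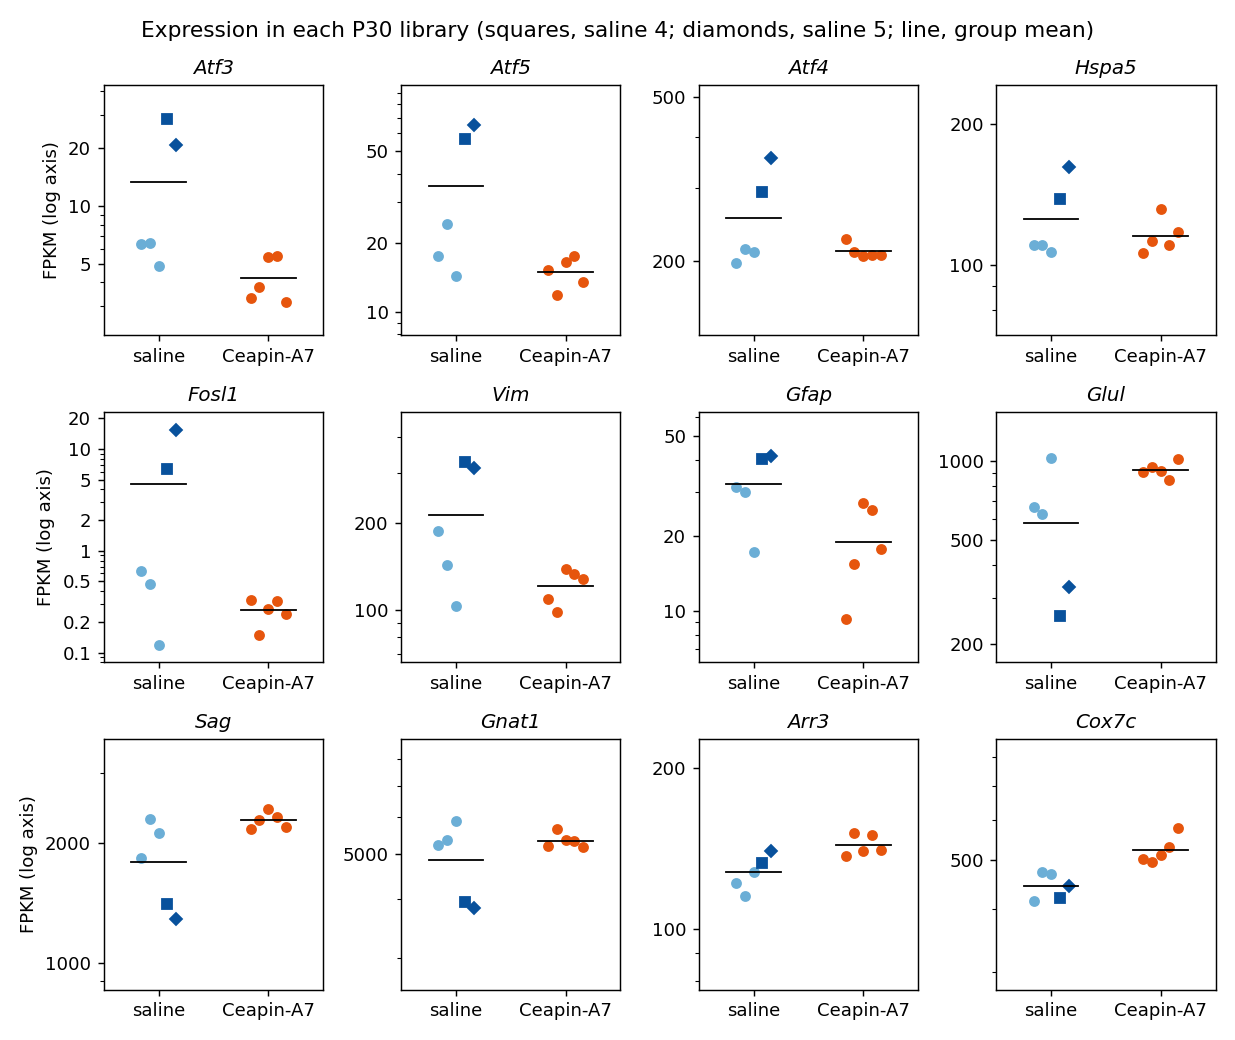
FPKM of 12 genes in each P30 library on log axes, with saline in blue (squares and diamonds mark replicates 4 and 5), Ceapin-A7 in orange and a line at each group's mean. For Atf3 and Fosl1 the 2 dark points lie above all others, for Glul, Sag and Gnat1 they lie below all others, and for Cox7c all treated points lie above the saline points.

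Müller glia markers had a median of 0.18 over 18 genes and of 0.04 without saline replicates 4 and 5. Glul was at 666, 624, 1024, 254 and 330 FPKM in saline and at 905, 945, 912, 848 and 1014 in Ceapin-A7 retinas, so the 2 lowest values were again those of saline replicates 4 and 5. Its log2 fold change was 0.85 ± 0.317 with all libraries and 0.28 without the 2. Sox2, a transcription factor of Müller and amacrine cells, went the other way, at 18.9 and 23.5 FPKM in these 2 libraries, 14.1 to 16.2 in the other 3 of saline and 13.3 to 14.9 after Ceapin-A7. Its difference was -0.31, and -0.14 without the 2. The 7 astrocyte genes had a median of 0.25, of 0.09 without the 2 and of 0.11 to 0.43 when single libraries were left out, lowest without saline replicate 4 and highest without saline replicate 1.

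Of 25 microglial and macrophage genes, 1 was higher at an unadjusted p no higher than 0.05, against 5.04% of all genes. This was P2ry12, the purinergic receptor of resting microglia, at 0.62, 0.94, 1.39, 0.64 and 1.24 FPKM in saline and at 1.45, 1.5, 1.73, 1.58 and 1.85 in Ceapin-A7 retinas. The groups did not overlap, and the log2 fold change of 0.75 ± 0.203 was 0.71 without saline replicates 4 and 5. The list as a whole had a median of 0.16, and of 0.06 without the 2. Of 6 tested genes of neutrophils and monocytes, 1 was higher and 1 lower, and apart from Mmp9 their group means were below 1 FPKM. The 1 lower gene, Plac8, was at 1.64 and 1.25 FPKM in saline replicates 4 and 5 and at 0.10 to 0.88 in the other 8 libraries. Interferon response genes had a median of 0.12 over 28 genes and of 0.19 without the 2, with 2 and 3 genes higher. Ifi27 averaged 10.0 ± 2.40 FPKM in saline and 14.4 ± 2.54 in Ceapin-A7 retinas (0.53 ± 0.163), and Ifit3 averaged 9.63 ± 2.18 and 12.9 ± 3.42 (0.41, and 0.61 without the 2).

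Many photoreceptor genes were lower in saline replicates 4 and 5 than elsewhere, and rod genes were among those in view when the 2 were picked. For 26 of 28 rod genes both libraries lay below the other 8, against 1636 of the 15408 genes tested. All 28 had a log2 fold change above 0, with a median of 0.16, and 2 were higher at an unadjusted p no higher than 0.05. Without the 2 libraries the median was -0.02 and none was at that threshold in either direction. Sag, the rod arrestin, was at 1834, 2288, 2113, 1406 and 1285 FPKM in saline and 2168 to 2423 in Ceapin-A7 retinas (0.38 ± 0.159, and 0.12 without the 2). Gnat1, the rod transducin subunit, averaged 4853 ± 909 and 5349 ± 191 FPKM, and Guca1a, which returns guanylate cyclase to the active state in low calcium, averaged 807 ± 137 and 958 ± 58.1 (0.16 and 0.26, and -0.05 and 0.08 without the 2). The treated libraries lay close together for each of these 3 genes.

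Cone genes shifted less than rod genes with those 2 libraries. Both lay below the other 8 for 7 of 14 cone genes, against 1636 of the 15408 genes tested. Of 14 genes, 7 were higher at an unadjusted p no higher than 0.05, against 5.04% of all genes, and 2 without saline replicates 4 and 5, against 2.6%, with medians of 0.18 and 0.08. Arr3, the cone arrestin, was at 122, 115, 128, 133 and 140 FPKM in saline and at 137, 151, 140, 150 and 141 in Ceapin-A7 retinas. After rescaling the groups did not overlap, and here saline replicates 4 and 5 held the highest saline values. The log2 fold change was 0.17 ± 0.048 with all libraries and 0.22 without the 2. Gngt2, the cone transducin gamma subunit, averaged 141 ± 27.0 and 181 ± 11 FPKM (0.38 ± 0.122, and 0.18 without the 2), and Pde6h, the inhibitory subunit of the cone phosphodiesterase, averaged 299 ± 57.0 and 347 ± 26.2 (0.23 and 0.03).

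Genes of inner retinal neurons were close to the median of all genes. Amacrine, horizontal, bipolar and retinal ganglion cell lists had medians of -0.001, 0.05, 0.02 and 0.01 over 28, 7, 22 and 23 genes, and 5 of these 80 genes were at an unadjusted p no higher than 0.05, a smaller share than the 10.4% of all genes. Calb2, the calretinin of amacrine and ganglion cells, averaged 285 ± 37.7 FPKM in saline and 285 ± 15.6 in Ceapin-A7 retinas. Nefl, a neurofilament of ganglion cell axons, averaged 159 ± 20.2 and 164 ± 8.66, and Thy1, a surface protein of ganglion cells, averaged 126 ± 11.6 and 126 ± 4.41. Gap43, a growth cone protein, was at 45.1 and 43.6 FPKM in saline replicates 4 and 5 and at 28.2 to 34.9 in the other 8. It belongs to the 11 genes of axon injury, whose median was -0.47, and -0.13 without the 2.

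Among bipolar cells, Grik1, a kainate receptor subunit of OFF types, was at 37.9, 38.9, 37.6, 42.8 and 44.8 FPKM in saline and at 33.2, 36.4, 34.0, 36.0 and 36.7 in Ceapin-A7 retinas. The groups did not overlap, with a log2 fold change of -0.19 ± 0.049 and of -0.13 without the 2 libraries. Prdm8, a transcription factor needed for rod bipolar cells, averaged 27.5 ± 3.24 and 23.3 ± 1.36 FPKM (-0.23 ± 0.071, and -0.18 without the 2). General synaptic genes had a median of -0.05 over 30 genes, with 6 lower, against 5.31% of all genes. Without the 2 libraries the median was 0.001 with 1 lower, against 2.37%. That 1 was Lin7a, a scaffold protein of synapses, at 18.4, 15.2, 17.1, 20.9 and 20.9 FPKM in saline and 13.5, 13.2, 12.1, 14.0 and 15.7 in Ceapin-A7 retinas (-0.42 ± 0.087, and -0.32 without the 2). Nlgn2, an adhesion protein of inhibitory synapses, averaged 43.7 ± 4.4 and 39.4 ± 0.614 FPKM (-0.14, and -0.08 without the 2). Photoreceptor synapse genes had a median of -0.01 over 19, with 3 lower, and of -0.03 with none lower without the 2.

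**Figure D3:**
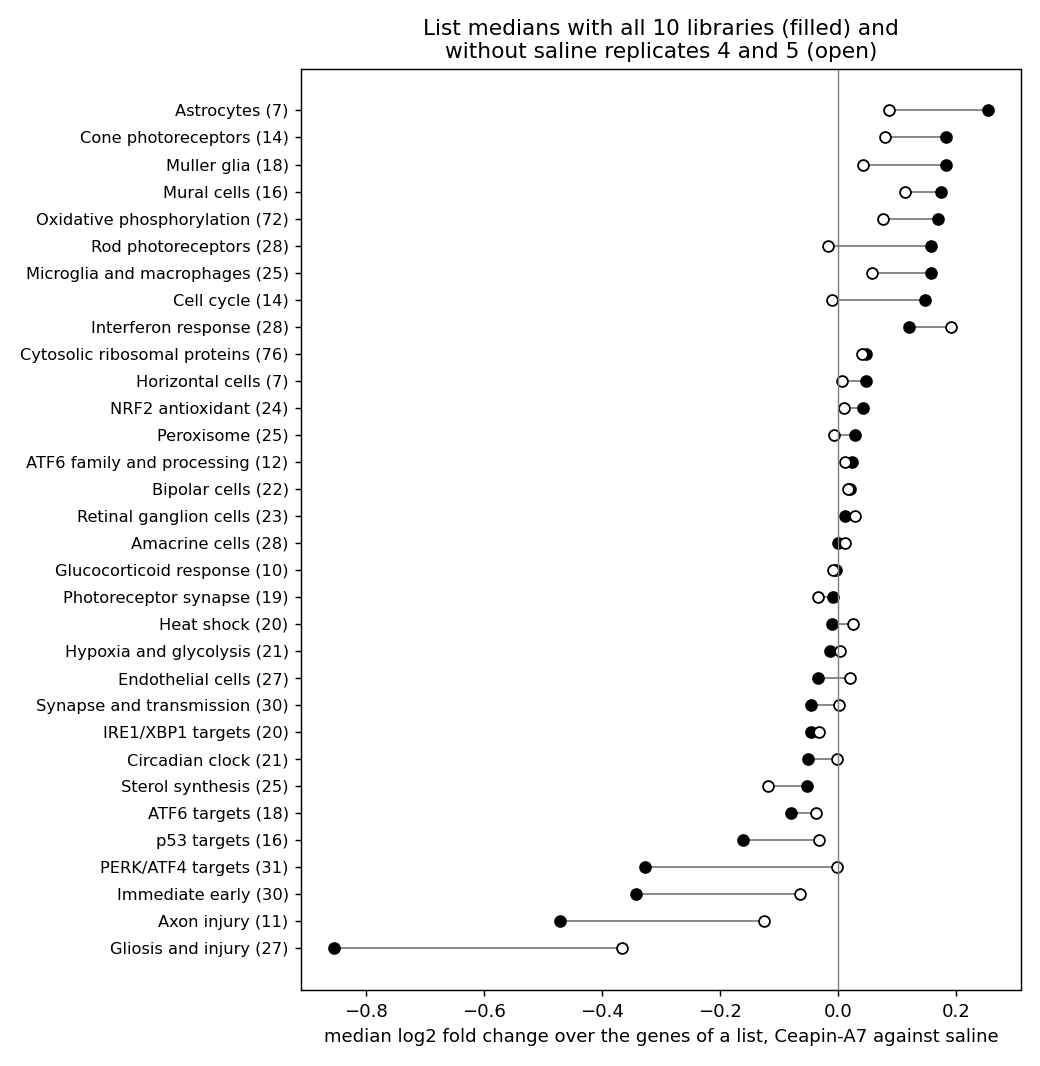
Median log2 fold change of 32 gene lists (number of genes tested in brackets) with all 10 P30 libraries as filled points and without saline replicates 4 and 5 as open points. The gliosis list moves from -0.85 to -0.37 and the PERK/ATF4 list from -0.33 to -0.0018, whereas the sterol synthesis list moves away from 0, from -0.05 to -0.12.

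Mitochondrial respiration was the list with the largest number of genes at the unadjusted threshold, though none was called. Of 72 genes of oxidative phosphorylation, all had a log2 fold change above 0 and 41 were higher at an unadjusted p no higher than 0.05, against 5.04% of all genes. Without saline replicates 4 and 5 the number was 6, against 2.6% of all genes, 66 of the 72 were above 0, and the median went from 0.17 to 0.08. With values rescaled to a common sum the list's median was 0.13. For 56 of the 72, both of these saline libraries lay below the other 8, against 1636 of the 15408 genes tested. Cox7c, a subunit of cytochrome c oxidase, was at 415, 473, 469, 421 and 444 FPKM in saline and at 502, 495, 513, 531 and 578 in Ceapin-A7 retinas, and Ndufa5, a subunit of complex I, was at 104 to 148 with a median of 137 against 165, 169, 154, 162 and 163. Neither overlapped between groups, and without the 2 libraries their log2 fold changes of 0.24 ± 0.061 and 0.34 ± 0.091 were 0.20 and 0.25. Atp5b, the catalytic subunit of ATP synthase, averaged 619 ± 43.3 and 678 ± 22.3 FPKM (0.13, and 0.05 without the 2). Ribosomal protein genes had a median of 0.05 over 76 genes, 1 of them higher, and peroxisome genes one of 0.03 over 25, which was -0.007 without the 2.

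Sterol synthesis was a list whose count of lower genes was the same with and without saline replicates 4 and 5. With all libraries 10 of 25 genes were lower at an unadjusted p no higher than 0.05, against 5.31% of all genes, and without the 2 libraries 10 of 25 were lower, against 2.37%. None was higher either way. The median was -0.05 with all libraries and -0.12 without the 2, and 5 genes did not overlap between groups, against 0.688% of all genes. This list was assembled with earlier results of these data known.

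Hmgcs1, which makes the precursor of mevalonate, was at 56.5, 63.2, 61.0, 63.8 and 62.5 FPKM in saline and at 55.4, 53.5, 52.3, 53.8 and 55.4 in Ceapin-A7 retinas. The groups did not overlap, with a log2 fold change of -0.18 ± 0.039 and of -0.17 without the 2.

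Sc5d and Msmo1, oxidases late in the pathway, averaged 24.1 ± 1.18 and 43.7 ± 3.86 FPKM in saline and 21.5 ± 0.49 and 36.5 ± 1.74 in Ceapin-A7 retinas (-0.16 and -0.26). Sqle, squalene epoxidase, averaged 28.1 ± 1.33 and 25.7 ± 0.901 (-0.13), and was named after its values had been seen. Srebf2, the transcription factor that raises the whole pathway when ER sterol is low and that is cut by the same pair of Golgi proteases as ATF6, averaged 46.2 ± 2.99 and 44.7 ± 1.90 FPKM (-0.05 ± 0.045, limma adjusted p = 0.701).

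**Figure D4:**
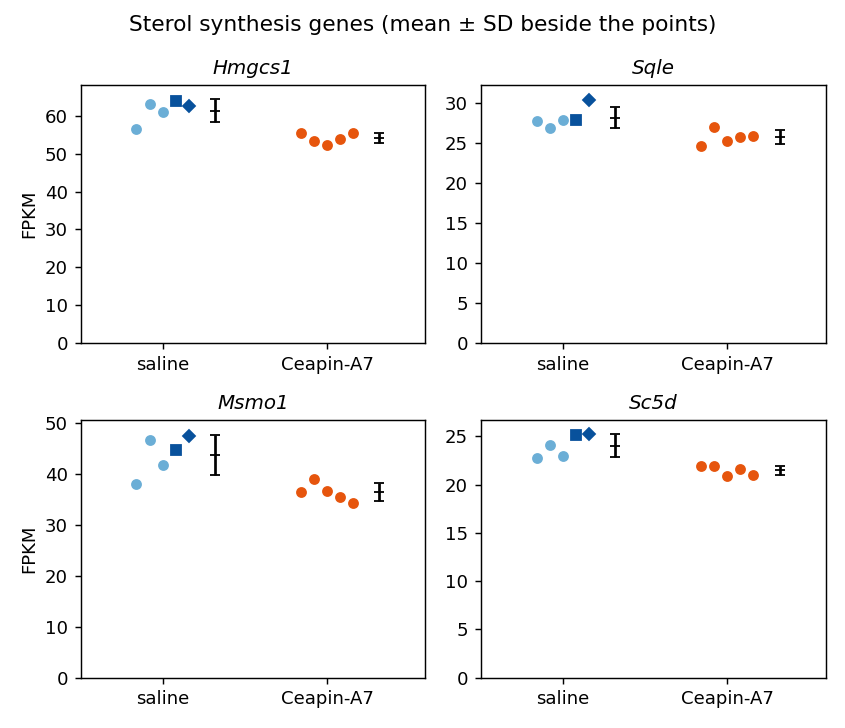
FPKM of 4 genes of sterol synthesis in each P30 library, with axes from 0, saline in blue (square, replicate 4, and diamond, replicate 5), Ceapin-A7 in orange and the mean ± SD of 5 libraries beside the points. The groups do not overlap for Hmgcs1 and Sc5d and overlap for Msmo1 and, by 1 point, Sqle.

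Endothelial genes, in which single members differed, had a median of -0.03 over 27 genes and of 0.02 without saline replicates 4 and 5. With all libraries 4 were higher at an unadjusted p no higher than 0.05, against 5.04% of all genes. Sox17, a transcription factor of arterial endothelium, was at 1.09, 1.07, 1.09, 1.14 and 1.27 FPKM in saline and at 1.27, 1.35, 1.61, 1.52 and 1.41 in Ceapin-A7 retinas (0.31 ± 0.093, and 0.35 without the 2). Egfl7, a protein secreted by endothelium, averaged 6.73 ± 0.812 and 7.92 ± 0.372 FPKM (0.24 ± 0.077, and 0.31 without the 2), and neither gene overlapped between groups after rescaling. Kdr, the main VEGF receptor, averaged 38.1 ± 7.36 and 32 ± 3.67 (-0.24, and -0.25 without the 2). Mural cell genes had a median of 0.17 over 16 genes, 14 of them above 0, and of 0.11 without the 2, with 2 higher, among them Rgs5 of pericytes (0.17 ± 0.067, and 0.22 without the 2). Dct and Mlana of pigment cells were higher by 1.57 and 2.13 on the log2 scale, Dcn by 2.2, and Ttr, the transthyretin of pigment epithelium, was at 29.3 to 121 FPKM in Ceapin-A7 and 81.9 to 167 in saline retinas. All of these 4 overlapped between groups. Ceapin-A7 replicate 3 gave the highest value of Dct, Mlana and Dcn and the lowest of Ttr.

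Of the 24 genes with the smallest p at a mean of at least 1 FPKM, list members or not, none was called. Among the 12 higher ones, Mrps11, of the mitochondrial ribosome, was at 21.0, 22.0, 21.5, 20.8 and 21.5 FPKM in saline and at 23.9, 22.9, 26.3, 25.8 and 26.1 in Ceapin-A7 retinas (0.22 ± 0.045). Timm10, a chaperone of mitochondrial import, averaged 13.2 ± 0.896 and 16.9 ± 1.77 (0.36), and Ndufb4c, a complex I gene with near-identical copies that the counting could have split, averaged 95.8 ± 4.76 and 121 ± 12.2 (0.34). Smim20, which helps assemble cytochrome c oxidase, gave 0.21. Sil1, the nucleotide exchange factor of Hspa5, averaged 15.4 ± 0.991 and 18.3 ± 0.743 FPKM (0.24 ± 0.056, and 0.17 without saline replicates 4 and 5). The other 7 were 2310039H08Rik, Gtf2h2, Bex1, Ppih, Tmem141, Ccdc91 and Nol12, at 0.19 to 0.33.

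Among the 12 lower ones, Pde10a, a cyclic nucleotide phosphodiesterase, was at 4.93, 5.83, 5.49, 4.85 and 6.05 FPKM in saline and at 4.59, 3.96, 3.66, 3.40 and 3.71 in Ceapin-A7 retinas (-0.48 ± 0.096, and -0.50 without the 2). The groups did not overlap. Abhd2, a lipid hydrolase, averaged 11.6 ± 0.342 and 9.82 ± 0.571 (-0.25), and Pxn, the focal adhesion protein paxillin, averaged 23.7 ± 2.17 and 19.9 ± 0.469 (-0.24). Mef2b, a transcription factor, averaged 1.43 ± 0.22 and 0.848 ± 0.182 FPKM (-0.70), and the unnamed gene LOC118568644 averaged 13.5 ± 0.914 and 10.6 ± 0.946 (-0.34). Adnp, Klf16 and Zfand2b were lower by 0.13 to 0.23 on the log2 scale, and the other 4 were Lin7a, Hmgcs1, Msmo1 and Sc5d, given above. All 24 genes kept their direction without saline replicates 4 and 5. They were chosen by their p over libraries that include the remaining ones, so this is not separate evidence.

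The spread within groups was larger in saline. The root mean square distance of a library from its own group mean, over 12783 genes with a mean of at least 1 FPKM, was 0.274, 0.228, 0.267, 0.224 and 0.288 log2 units in saline replicates 1 to 5 and 0.206, 0.175, 0.194, 0.260 and 0.174 in Ceapin-A7 replicates 1 to 5. The means were 0.256 ± 0.0285 and 0.202 ± 0.0350 (SD, n = 5; exact two-sided permutation p = 0.0397, with 0.00794 the smallest that 5 against 5 allows). The distances of a group share a mean, so an outlying library raises the others and they are not independent values. The test shuffled the distances without recomputing them, so its p describes these distances and is not an exact test of equal spread. Ceapin-A7 replicate 4, the library with muscle genes, was the 1 treated library within the saline range. Left out one at a time, saline replicates 1, 3, 4 and 5 and Ceapin-A7 replicates 2 and 5 each moved the exact permutation p above 0.05, to between 0.0635 and 0.175. The difference was 0.0271 (exact permutation p = 0.286) without saline replicates 4 and 5. Distances from the mean of a smaller group are smaller by construction, so values with libraries left out cannot be set directly against the first. With all libraries it was 0.0565 (exact permutation p = 0.00794) without the genes of lens, muscle, pigment, stroma, ciliary body, red cells and the sex chromosomes. That gene choice was made after the data had been seen. In P17 OIR retinas the distances averaged 0.219 ± 0.0291 (SD, n = 5) in WT and 0.188 ± 0.0404 in Atf6 knockout mice.

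**Figure D5:**
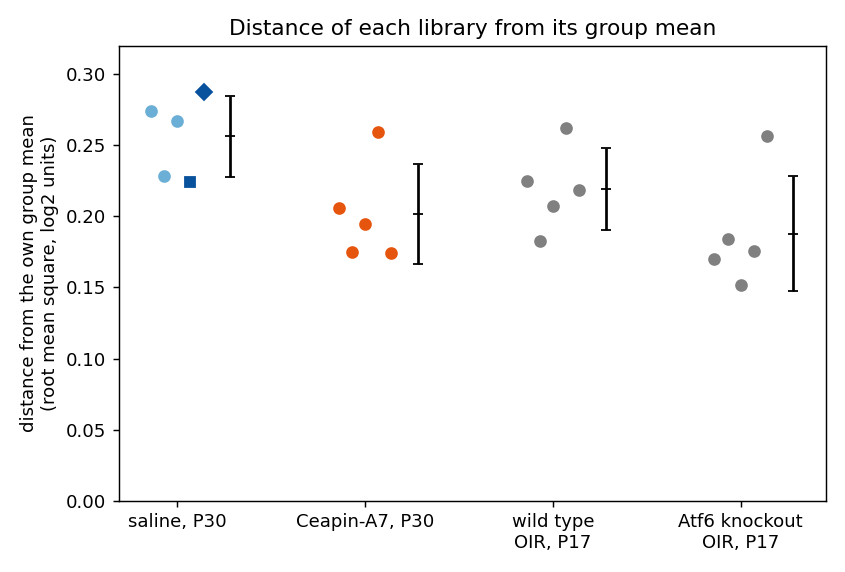
Root mean square distance of each library from the mean of its own group in log2 units, for the P30 groups (saline blue, Ceapin-A7 orange) and the P17 OIR groups (grey), with the mean ± SD of 5 libraries beside the points. In saline 5 libraries lie between 0.224 and 0.288, and 4 of the 5 Ceapin-A7 libraries lie below 0.21.

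Gene by gene, the SD of the 5 log2 values was larger in saline than in Ceapin-A7 retinas for 10845 genes (70.4%), with medians of 0.139 and 0.0957. Over saline replicates 1 to 3 alone the share was 53.7% and the median 0.106. An SD of fewer values tends to be smaller, so these cannot be set directly against the share and median of 5 values. The SDs of stress and photoreceptor lists were among those that differed, with median SDs of 0.434 in saline and 0.0904 in Ceapin-A7 libraries for PERK/ATF4 targets and of 0.234 and 0.0624 for rod genes. The 8 genes of largest SD in saline were all lens crystallins. In Ceapin-A7 libraries the 8 were Y-linked, muscle and lens genes. The first principal component held 32.4% of the variance and had lens crystallins at one end and muscle genes, Fosl1, Lif and Tnfaip6 at the other.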

How the data were processed

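The authors aligned paired-end 100 bp reads of stranded mRNA libraries to GRCm39 with HISAT2 2.0.4 and deposited gene-level FPKM values from RSEM 1.2.18, and the submitters' processing notes also name DESeq2 1.4.5. FPKM keep no read counts, so absolute depth is unknown, and relative depth was estimated from the steps between low values. Per the labels, each group had 5 samples. The values of 19102 genes in 10 libraries were divided by median-of-ratios factors (0.980 to 1.02), genes with a mean above 0.1 FPKM were kept, and log2(FPKM + 0.1) was tested with limma 3.58.1 (moderated test with trend, two-sided, R 4.3.3). P-values were Benjamini-Hochberg adjusted over all 15408 genes. A fold change on this scale understates that of low genes. In simulated data with independent noise for each gene, 94.5% of 200 genes changed 2-fold, with a mean of at least 1 FPKM, were called at 15408 genes. Smaller shifts and noise shared between genes were not simulated. Spread was tested by exact permutation of the library distances, which were not recomputed for each arrangement (SciPy 1.17.1). Genes named were the 12 of smallest p in each direction with a mean of at least 1 FPKM, the 2 of smallest p and the 2 most abundant of each list, ATF6 pathway genes, and those of largest SD or first component weight, unless said otherwise. Some genes that this rule names are not reported here. The libraries and the 40 gene lists were chosen with earlier results of these data known. The authors' fold change and p-value columns were not used. Promoters came from RefSeq (GRCm38.p6), found for 12140 tested genes, and no gene coordinates of GRCm39 were used here. Pseudocounts, filters, scalings, covariates, all 20 libraries and left-out libraries were tried as alternatives.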

Additional observations from a re-analysis of the deposited data

Results flagged for a closer look

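Among 5 libraries of a group, 1 value lay far from the other 4 by Dixon's test at the 95% level in 21 of 280 sets of values checked, and chance gives about 1 in 20. The cause of none of these was tested.

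In saline, replicate 5 was highest for the Y-linked list (score 4.01) with Ddx3y at 16.3 FPKM, and for Calr at 246 FPKM, Sel1l at 28.8 FPKM and Sox17 at 1.27 FPKM. Saline replicate 4 was highest for Adnp at 56.4 FPKM and for Pmvk, phosphomevalonate kinase, at 63.5 FPKM. Saline replicate 2 was highest for Abcd3 at 23.0 FPKM and lowest for Srebf2 at 40.9 FPKM, and replicate 1 was highest for mural cell genes with a score of 0.176.

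In Ceapin-A7 retinas, replicate 4 was highest for skeletal muscle genes (score 6.04) with Mylpf at 50.7 FPKM and lowest for pigment epithelium genes (score -0.505). Replicate 3 was highest for ATF6 targets (score 0.0584), astrocytes (score 0.455), mural cells (score 0.326), red blood cells (score 0.604) and Dcn (21.0 FPKM). Replicate 1 was highest for Ern1 at 8.77 FPKM and lowest for Pmvk at 31.3 FPKM, and replicate 5 was lowest for 2310039H08Rik at 11.2 FPKM.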

How the results depend on the processing

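No alternative gave a called gene except the fit of all 20 libraries, which called 1 lower gene (limma), Gm4963, at a log2 fold change of -1.20, a gene under 1 FPKM in every library. At an unadjusted p no higher than 0.05, values rescaled to a common sum gave 456 higher and 1243 lower genes, and leaving out saline replicates 4 and 5 gave 400 and 365. With Ddx3y as a covariate the counts rose to 984 and 1044. Leaving out single libraries gave 487 to 1246 higher and 466 to 1281 lower genes, with the lowest counts without saline replicate 4 and the highest without saline replicate 2. The difference in spread was 0.0358 to 0.0801 over the same fits and 0.0271 without saline replicates 4 and 5. Leaving libraries out of a group makes its distances smaller by construction. Leaving out these 2 turned the direction of Hspa5 (0.064), Xbp1 (0.068), Atf4 (0.011), Ddit3 (0.022), Chac1 (0.15), Asns (0.13) and Gnat1 (-0.054).

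Genes near 0 changed sign in other fits. With Ddx3y as a covariate, Atf6 was at -0.021, Calb2 at -0.061 and Thy1 at -0.034. Rescaled to a common sum Atf6 was at -0.028, Calb2 at -0.030 and Thy1 at -0.035. Under quantile normalization Mbtps2 was at 0.0061, Calb2 at -0.041 and Thy1 at -0.019. Over fits without single libraries Atf6 ran from -0.012 to 0.030, Mbtps2 from -0.039 to 0.016, Calb2 from -0.033 to 0.075, Thy1 from -0.035 to 0.045, Cryaa from -0.26 to 2.16 and Mylpf from -0.0049 to 1.08, and the cause was not tested beyond the libraries left out.

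Replicate numbers shared by the groups were not taken as pairs. The same-number correlation of deviations ran from -0.375 to 0.454 over 5 pairs, and 1 Ceapin-A7 library correlated best with its own number. These correlations include the genes of lens, muscle and other tissues, so they cannot show whether the numbers mark pairs. With the replicate block 836 genes were higher and 770 lower at an unadjusted p no higher than 0.05. FPKM without counts or depth limit what can be said of low genes.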
